A study of Arabidopsis thaliana and Marchantia polymorpha and Mesotaenium endlicherianum with 120 samples.

Results

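The genes described here are the mitochondrion-encoded entries of the green alga Ostreococcus tauri, that is, every row of its count table whose identifier begins with OstapM. There were 78 such entries among 7833 in the table, of which 77 are described, beside 94 plastid entries and 7661 others that are called nuclear below. RNA was sequenced from wild type cells grown for 7 days in continuous white light. The 4 groups, each with 3 libraries, were 24 °C with light of 100 µmol per square metre and second (light 100 from here on), 24 °C with light 10, 16 °C with light 100 and 16 °C with light 10. The series asked how light and temperature are integrated in the transcriptomes of several plants and algae, and the comparisons below are the change with warmth at each light, the change with more light at each temperature, and the interaction of warmth and light. The labels do not say whether the libraries came from separate cultures, so p-values measure only the spread between these libraries.

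Ostreococcus tauri is a very small unicellular green alga of the marine plankton. Its mitochondrion, like that of plants, keeps a genome of its own that encodes a few subunits of the respiratory chain and of the ATP synthase, proteins of the mitochondrial ribosome, and the ribosomal and transfer RNAs needed to translate them, while most mitochondrial proteins are made from nuclear genes and imported. Complex I takes electrons from NADH, complex III passes them on to cytochrome c, and complex IV hands them to oxygen. The proton gradient that these complexes build drives complex V, the ATP synthase.

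The names in the table bore out the label. The members held 11 entries for complex I (the nad genes and ndhK), 2 for complex III (CytB, apocytochrome b), 4 for complex IV (Cox1, Cox2 and Cox3), 7 for complex V (Atp1, Atp6, Atp8, Atp9 and Ymf39), 14 ribosomal proteins, 3 open reading frames, Ymf16 (the TatC-like subunit of a protein translocase), 6 rRNA entries (rrs for the small and rrl for the large ribosomal subunit), 28 tRNA entries and RnpB (the RNA of ribonuclease P). A search for names of plastid genes among them found 0. A filter on low counts kept 7667 entries of the table, 61 of the 77 among them; the 16 left out were all tRNA entries, with at most 20 counts in any library.

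Several gene names stood in the table more than once. The counts of 11 pairs of like-named entries differed by 0.826% to 19.0% (absolute differences summed over the 12 libraries, relative to the mean of both entries), the widest being CytB. These were Nad4L, Atp8, Ymf39, Cox1, ORF129, CytB, trnY, trnM, rrl and, in separate pairs, 2 forms of rrs. Among the protein pairs the identifiers run in opposite order, OstapMp21 to OstapMp26 against OstapMp43 to OstapMp38. Pairs were found by name and similar counts alone, and how reads were counted is not known, so the entries of a pair are not treated as independent measurements, and the values of one entry stand for both unless both are given. Counted in that way, the 61 tested entries were 51.

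Total counts per library ran from 18415316 to 38801166, and mitochondrial entries took 0.0348% to 0.163% of them. Neither the method of RNA extraction for this alga nor any selection of polyadenylated RNA is stated in the labels, so these shares say nothing of how much mitochondrial RNA the cells held. The mitochondrial share was 0.163%, 0.0532% and 0.0481% at 24 °C with light 100 and 0.0485%, 0.0348% and 0.0484% at 24 °C with light 10. It was 0.135%, 0.0520% and 0.0781% at 16 °C with light 100, and 0.0763%, 0.101% and 0.0873% at 16 °C with light 10. At light 10 all 3 shares at 24 °C lay below all 3 at 16 °C, and the ratio of the means was 0.498. At light 100 the groups overlapped, and the ratio of the means was 0.995; it was 0.573 without replicate 1 at 24 °C and 1.35 without replicate 1 at 16 °C. The cause of the lower share at light 10 was not tested. Genomes per cell, RNA per genome and the unstated RNA preparation cannot be told apart here.

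Replicate 1 at 24 °C in light 100 stood apart from the other libraries of its group. It had the lowest total of all 12 libraries and the highest mitochondrial share. It was the highest of its group for 36 of the 61 tested entries and the lowest for 13. The excess was uneven: nad1 took 34.6% of its mitochondrial counts, against 21.9% and 19.9% in the other libraries of the group, whereas both Cox1 entries together took 1.66%, against 5.91% and 5.62%. At 16 °C in light 100, replicate 1 was the highest of its group for 56 of the 61 and replicate 2 the lowest for 52. Results that rest on these libraries are given with and without them.

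**Figure D1:**
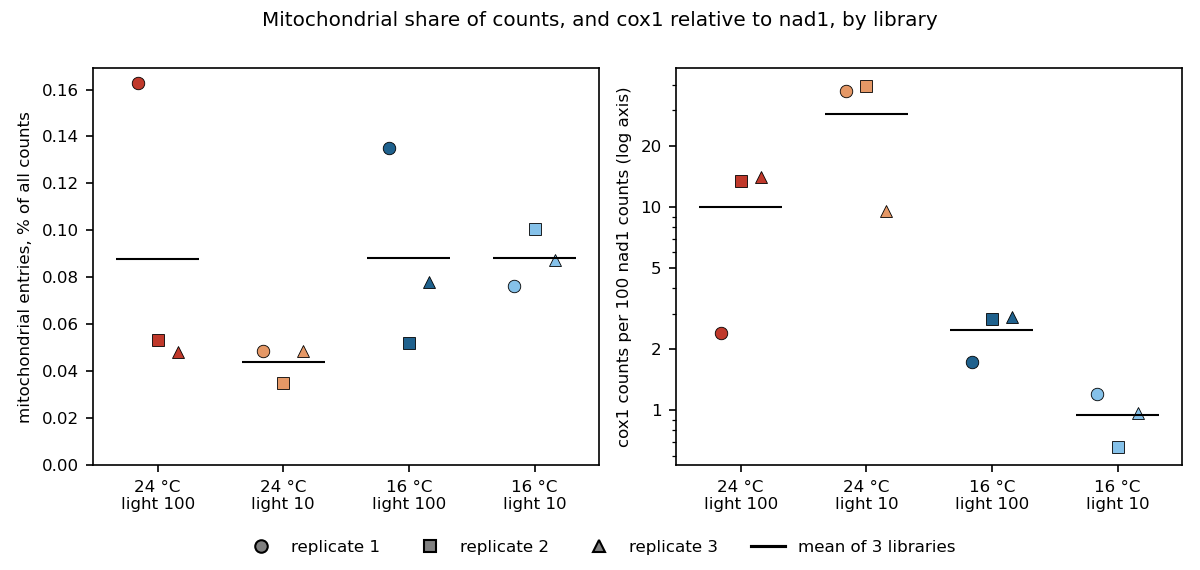
Left, counts in mitochondrial entries as a percentage of all counts of each library (y axis) in the 4 groups; right, Cox1 counts (mean of its 2 entries) per 100 nad1 counts on a log axis. Points are libraries, marked by replicate number, and lines are means of 3. At light 10 the shares at 24 °C lie below those at 16 °C, and Cox1 per 100 nad1 counts is 9.57 to 39.4 at 24 °C against 0.660 to 1.21 at 16 °C.

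With warmth at light 10 the mitochondrial genes did not all change alike. Cox1, Cox3, nad3, nad7, Atp9, Rpl6, Rps13 and ORF153 were more than 3-fold higher at 24 than at 16 °C, while CytB, Atp6, Atp8 and Rpl16 were called lower and nad2, Cox2, Ymf39 and 9 ribosomal protein entries did not pass the test. Of the 61 entries tested, 17 were called higher and 6 lower by edgeR's quasi-likelihood test at an adjusted p under 0.05, adjusted over all 7667 entries. Among all entries tested, 66.3% were called, 32.9% higher and 33.4% lower. In this fit the members' share called higher, 27.9%, was near the background and their share called lower, 9.84%, was below it. The count called lower depended on the fit. It was 19 with the 6 libraries at light 10 alone, 12 with total counts and 11 without replicate 1 at 24 °C in light 100. In the whole table these fits called 5110, 5276 and 5170 entries in either direction, against 5084. The members' median log2 change was -0.05, against -0.01 over all entries, and ran from -0.17 to 0.13 with 1 library left out. At light 100 warmth gave 18 calls higher and 4 lower among the members, against a background of 71.1% called, 35.1% higher and 36.1% lower. The members' median there was 0.35, against -0.02 over all entries. It was 0.79 without replicate 1 and 0.086 without replicate 2 at 16 °C in light 100, between 0.21 and 0.59 without any one library at 24 °C in light 100, and 0.12 with total counts in place of scaled library sizes.

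Calls at the edge of the threshold moved with the libraries. At light 10, 12 of the 23 calls (11 higher, 1 lower) were kept in all 12 fits that each left out 1 library. At light 100, 9 of the 22 (7 higher, 2 lower) were kept. The count at light 10 was 14 without replicate 1 at 24 °C in light 10, and at light 100 it was 13 without replicate 2 and 14 without replicate 3 at 16 °C in light 100. A fit of the 6 libraries at light 10 alone called 17 entries higher and 19 lower. With total counts in place of scaled library sizes, warmth gave 14 higher and 12 lower at light 10 and 8 higher and 4 lower at light 100.

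Complex IV held the highest change, that of Cox1. Cox1, its catalytic subunit, had 14.3, 17.8 and 15.3 CPM (counts relative to scaled library sizes) at 24 °C in light 100 and 23.1, 14.9 and 11.97 CPM at 24 °C in light 10 in its first entry, Cox1_1. The same entry had 6.48, 3.18 and 5.56 CPM at 16 °C in light 100 and 2.23, 1.84 and 2.21 CPM at 16 °C in light 10. Every library at 24 °C was thus above every library at 16 °C, and at 16 °C every library in light 100 was above those in light 10, whereas at 24 °C the light groups overlapped. With warmth Cox1_1 rose 7.98-fold at light 10 (log2 change 2.996 ± 0.28, SE, n = 3 per group, edgeR adjusted p = 7.59e-07) and 3.12-fold at light 100 (1.64 ± 0.26, edgeR adjusted p = 6.7e-05). The second entry, Cox1_2, had log2 changes of 3.02 and 1.68. Neither call was lost in any of the 12 fits that left out 1 library.

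Cox3, which lies beside Cox1 in the core of complex IV, rose at light 10. It had 4.76, 4.91 and 3.44 CPM at 24 °C in light 100, and 8.23, 6.27 and 4.58 CPM at 24 °C in light 10. In the cold it had 3.96, 1.45 and 2.64 CPM at light 100 and 1.03, 1.30 and 0.699 CPM at light 10. The groups at light 10 did not overlap, and the log2 change with warmth there was 2.67 ± 0.35 (edgeR adjusted p = 1.78e-05). At light 100 it was 0.70 ± 0.33 and missed the threshold (edgeR adjusted p = 0.0717), though it passed with replicate numbers as a block (0.73). Cox2, which takes the electrons from cytochrome c, did not pass in either light, with log2 changes of -0.15 ± 0.42 at light 10 and 0.19 ± 0.42 at light 100. The members of this complex spanned -0.15 to 3.02 at light 10, and the difference between Cox1 and Cox2 was itself not tested.

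**Figure D2:**
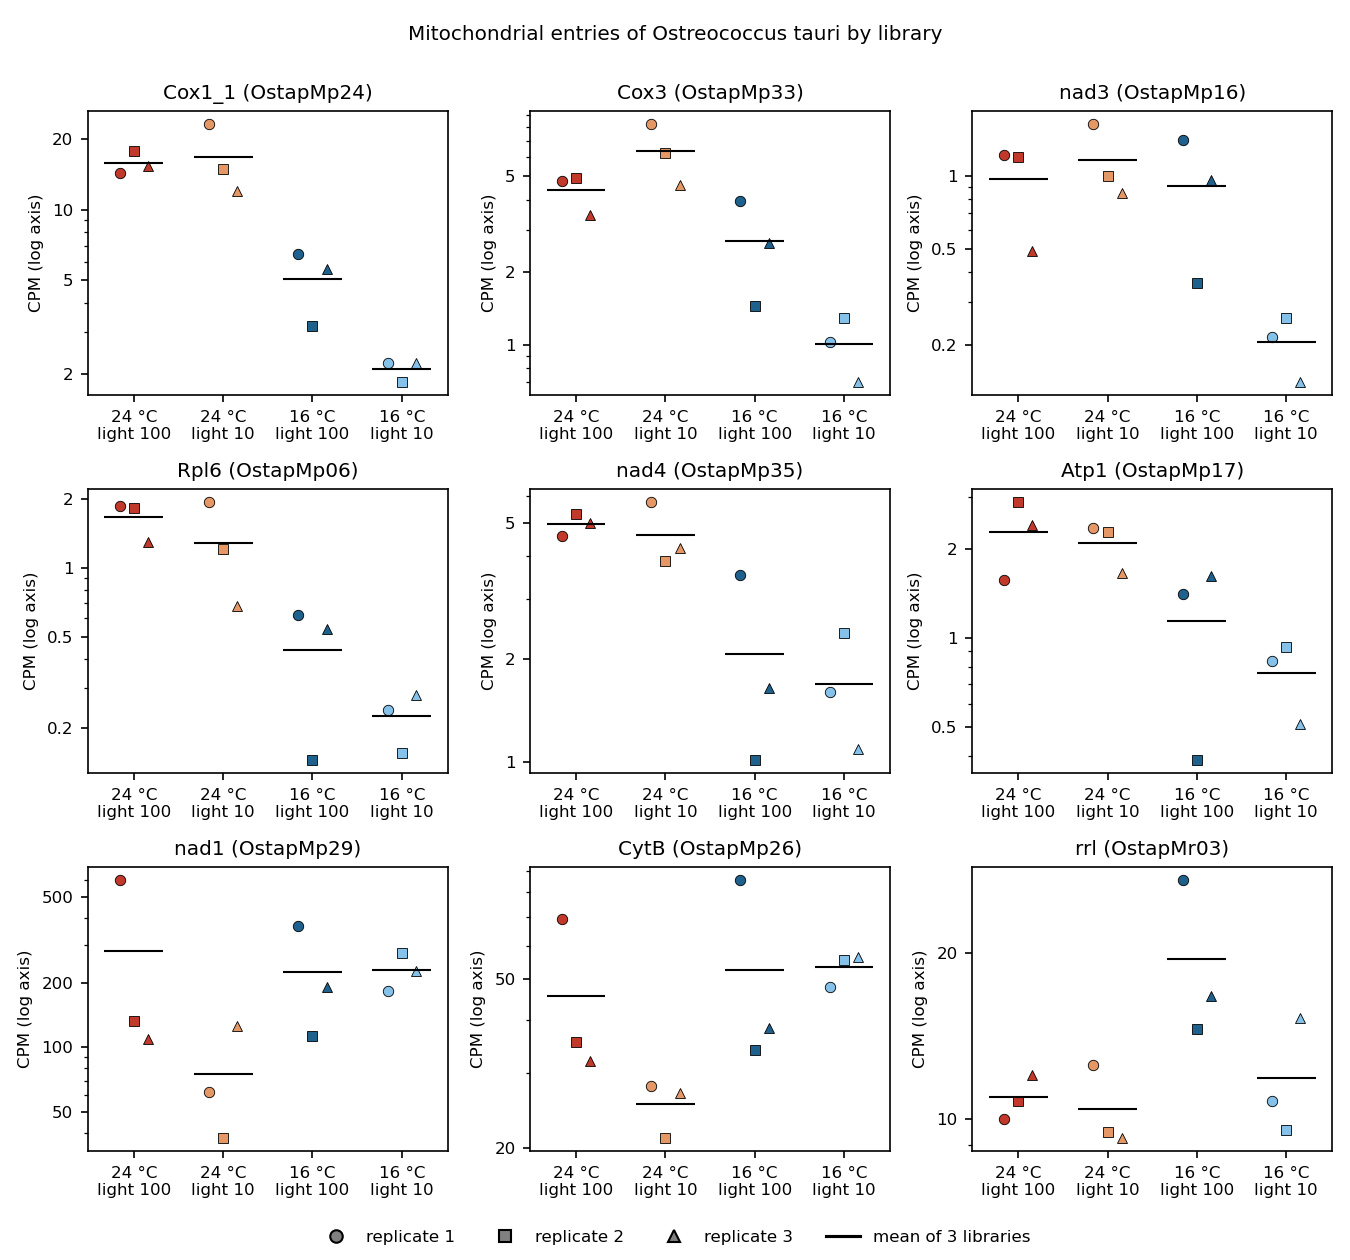
CPM of 9 entries (y axes, log scale) in the 12 libraries by group; points are libraries marked by replicate number, lines are means of 3. Cox1_1, Rpl6 and nad4 are higher in every library at 24 °C than in every library at 16 °C, while nad1 and CytB at light 10 are lower at 24 °C, with 1 high library at 24 °C in light 100.

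Of the 11 complex I entries, 6 were called higher in the warmth at light 10 (54.5%, both Nad4L entries among them, against 32.9% of all entries) and 5 at light 100 (45.5%, against 35.1%), and 0 were called lower in either light (by DESeq2 also 0, and at an unadjusted p under 0.05 1 at light 10). nad7, a subunit of the peripheral arm that reaches into the matrix, had 2.44, 2.82 and 2.21 CPM at 24 °C in light 100 and 3.97, 2.56 and 1.61 CPM at 24 °C in light 10. In the cold it had 1.26, 1.13 and 1.11 CPM in light 100 and 0.886, 0.544 and 0.699 CPM in light 10. Every library at 24 °C exceeded every library at 16 °C, and the log2 changes with warmth were 1.95 ± 0.31 at light 10 and 1.09 ± 0.30 at light 100 (edgeR adjusted p = 8.28e-05 and 0.0048). Both calls were kept whichever library was left out.

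The proton-pumping membrane-arm subunit nad4 had 4.58, 5.31 and 5.00 CPM at 24 °C in light 100 and 5.77, 3.87 and 4.24 CPM at 24 °C in light 10. At 16 °C its libraries had 3.54, 1.01 and 1.65 CPM in light 100 and 1.60, 2.38 and 1.10 CPM in light 10, without overlap between temperatures. Its log2 changes with warmth were 1.46 ± 0.37 at light 10 and 1.27 ± 0.37 at light 100 (edgeR adjusted p = 0.00352 and 0.00729). nad5, another such subunit, had 6.32, 5.31 and 3.77 CPM at 24 °C in light 100, and 4.74, 3.87 and 3.10 CPM at 24 °C in light 10. The libraries at 16 °C had 3.71, 1.69 and 3.47 CPM in light 100 and 1.60, 2.20 and 1.89 CPM in light 10. The temperatures did not overlap within either light, and nad5 rose by 1.05 ± 0.29 at light 10 and by 0.78 ± 0.28 at light 100 (log2, edgeR adjusted p = 0.00593 and 0.0241). The call at light 100 was lost without replicate 1 or 2 at 24 °C (0.62 and 0.74) or replicate 2 at 16 °C (0.50).

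nad3, a small membrane-arm subunit, was low in 1 group. It had 1.22, 1.20 and 0.487 CPM at 24 °C in light 100, 1.64, 0.995 and 0.849 CPM at 24 °C in light 10, and 1.41, 0.362 and 0.967 CPM at 16 °C in light 100. At 16 °C in light 10 it had 0.215, 0.259 and 0.140 CPM, which were 6 to 10 counts per library. All 9 other libraries were above these 3. The log2 change with warmth was 2.52 ± 0.55 at light 10 (edgeR adjusted p = 0.00123) and 0.05 ± 0.48 at light 100. Nad4L rose at light 10 by 0.92 ± 0.28 and 0.94 ± 0.29 in its 2 entries, calls that were lost without replicate 1 at 24 °C in light 10 (0.65 and 0.71). The low entries nad9 and ndhK, both of the peripheral arm, were called higher at light 100 (1.19 ± 0.48 and 1.22 ± 0.48), in 6 and 8 of the 12 fits that left out 1 library. nad2 did not pass in either light (0.67 ± 0.36 at light 10 and 0.42 ± 0.36 at light 100).

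nad1 and nad6, the membrane-arm entries with the most counts, were on the other side at light 10. nad1 had 601, 132 and 109 CPM at 24 °C in light 100 and 62.0, 37.8 and 126 CPM at 24 °C in light 10. At 16 °C it had 368, 113 and 190 CPM in light 100 and 183, 275 and 228 CPM in light 10. At light 10 all 3 libraries at 24 °C were below all 3 at 16 °C, with a log2 change of -1.61 ± 0.70 that missed the threshold (edgeR adjusted p = 0.0645). For nad6 the log2 change was -1.91 ± 0.88 (edgeR adjusted p = 0.0768). Both were called lower without replicate 1 at 24 °C in light 100 (-1.60 and -1.91), a library of neither group, which enters through the scaling and the shared estimate of spread, and in the fit of the light 10 libraries alone (-1.64 and -1.95); nad1 was also called with replicate numbers as a block (-1.76). Set against each other within a library, Cox1 counts per 100 nad1 counts were 37.3, 39.4 and 9.57 at 24 °C and 1.21, 0.660 and 0.973 at 16 °C in light 10. In light 100 they were 2.40, 13.5 and 14.2 at 24 °C and 1.74, 2.82 and 2.88 at 16 °C, so that replicate 1 at 24 °C lay within the range of the cold libraries. These ratios are not corrected for gene length.

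CytB, the electron-carrying core of complex III, was lower in the warmth at light 10. Its entry OstapMp26 had 69.2, 35.6 and 32.1 CPM at 24 °C in light 100 and 28.0, 21.1 and 27.0 CPM at 24 °C in light 10. In the cold it had 85.6, 34.1 and 38.3 CPM in light 100 and 48.0, 55.6 and 56.4 CPM in light 10. At light 10 the temperatures did not overlap, and CytB fell with warmth by 1.07 ± 0.33 in OstapMp26 and by 1.23 ± 0.34 in OstapMp38 on the log2 scale (edgeR adjusted p = 0.0112 and 0.00577). The call on OstapMp26 was lost without replicate 3 at 24 °C in light 10 (-1.12), and that on OstapMp38 was kept whichever library was left out. At light 100 the temperatures overlapped, with log2 changes of -0.22 ± 0.33 and -0.34 ± 0.33 that did not pass.

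Of the 7 ATP synthase entries, 2 were called higher and 3 lower with warmth at light 10 by edgeR, and 2 and 0 by DESeq2. The edgeR shares were 28.6% and 42.9%, against 32.9% and 33.4% of all entries. Both Atp8 entries, a pair of like counts, were among the 3 called lower. Atp1, the alpha subunit of the catalytic head, had 1.57, 2.89 and 2.40 CPM at 24 °C in light 100 and 2.35, 2.29 and 1.66 CPM at 24 °C in light 10. At 16 °C its libraries had 1.41, 0.386 and 1.63 CPM in light 100 and 0.838, 0.932 and 0.513 CPM in light 10. Atp1 rose by 1.48 ± 0.42 at light 10 (log2, edgeR adjusted p = 0.00668) and by 1.03 ± 0.40 at light 100 (edgeR adjusted p = 0.0342), where the groups overlapped. At light 100 the call was lost without replicate 2 at 16 °C (0.62) or replicate 2 or 3 at 24 °C (0.83 and 1.01). Atp9, which forms the ring of the membrane rotor, had 2.70, 1.56 and 1.02 CPM at 24 °C and 0.383, 0.544 and 0.536 CPM at 16 °C in light 10. It rose by 1.88 ± 0.45 there (edgeR adjusted p = 0.0023) and did not pass at light 100 (0.16 ± 0.49).

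The entries called lower by edgeR were the membrane subunits Atp6, which forms the proton channel with the ring, and Atp8. Atp6 had 21.8, 5.65 and 5.07 CPM at 24 °C in light 100 and 5.00, 3.07 and 5.52 CPM at 24 °C in light 10. The libraries at 16 °C had 15.9, 5.81 and 7.36 CPM in light 100 and 9.02, 11.3 and 10.8 CPM in light 10. Its log2 change with warmth was -1.21 ± 0.50 at light 10 (edgeR adjusted p = 0.0483), and at light 100 it did not pass (0.11 ± 0.49). Atp8 changed by -1.06 ± 0.43 in each entry at light 10 (edgeR adjusted p = 0.0428 and 0.0418), again without overlap. These 3 calls were at the threshold. All were lost with DESeq2 (-1.17 for Atp6 and -1.03 for both Atp8 entries), and that on Atp6 also with RLE scaling (-1.18) and with scaling on nuclear entries (-1.20). Each was kept in 5 of the 12 fits that left out 1 library, with changes from -1.36 to -0.98 for Atp6 and from -1.32 to -0.91 for Atp8. Ymf39, the peripheral stalk subunit known elsewhere as Atp4, had log2 changes of -0.07 ± 0.30 at light 10 and 0.18 ± 0.31 at light 100 in its first entry and did not pass.

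**Figure D3:**
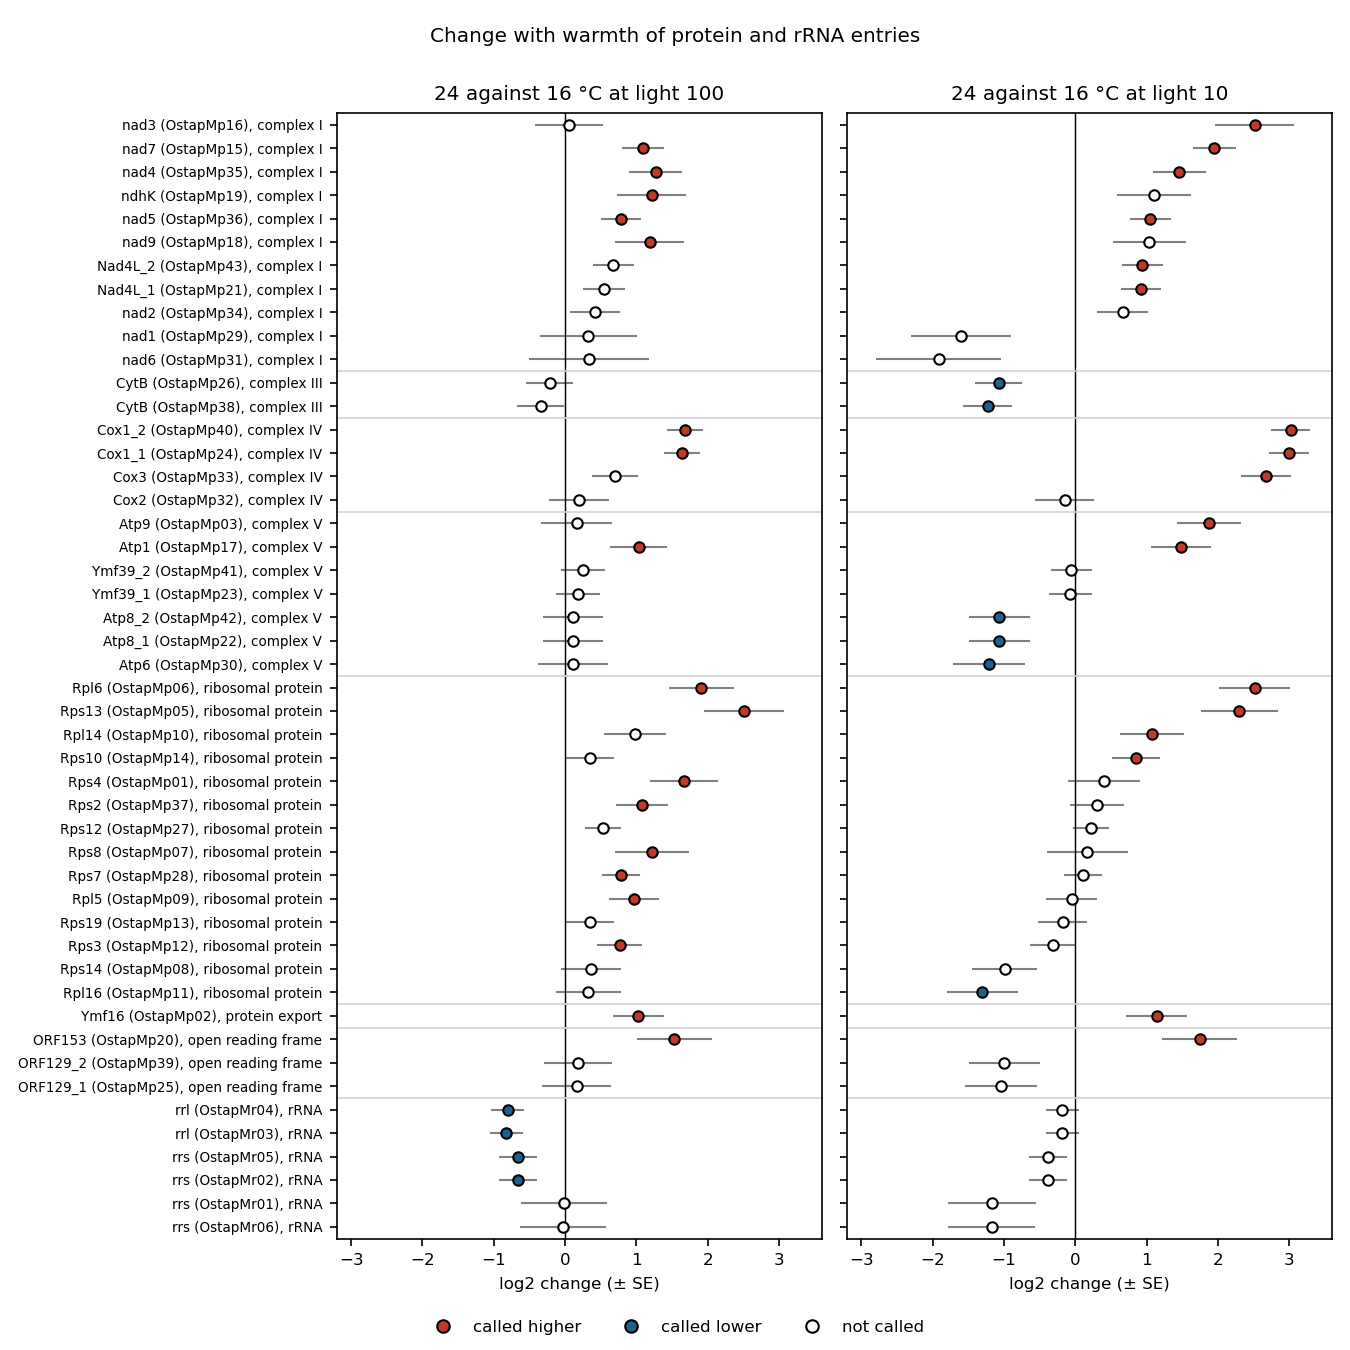
Log2 change of the protein and rRNA entries with warmth, 24 against 16 °C, at light 100 (left) and light 10 (right), grouped by complex; points are edgeR estimates, bars are standard errors, filled points passed an adjusted p of 0.05. At light 10 the entries span -1.91 (nad6) to 3.02 (Cox1_2), and at light 100 -0.82 (rrl) to 2.51 (Rps13).

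Ribosomal proteins translate the respiratory subunits inside the mitochondrion. Of their 14 entries, 8 were called higher and 0 lower at light 100, with a median log2 change of 0.88. The shares were 57.1% and 0%, against 35.1% and 36.1% of all entries. At an unadjusted p under 0.05 there were 9 and 0, and by DESeq2 10 and 0. At light 10, 4 were called higher and 1 lower (28.6% and 7.14%, against 32.9% and 33.4% of all entries), with a median of 0.19.

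Rpl6, of the large subunit, and Rps13, of the small subunit, were higher in both lights. Rpl6 had 1.86, 1.81 and 1.30 CPM at 24 °C in light 100 and 1.93, 1.21 and 0.679 CPM at 24 °C in light 10. In the cold it had 0.618, 0.145 and 0.542 CPM in light 100 and 0.239, 0.155 and 0.280 CPM in light 10, all below every library at 24 °C. The log2 changes of Rpl6 were 2.51 ± 0.50 at light 10 and 1.91 ± 0.46 at light 100, and those of Rps13 were 2.30 ± 0.54 and 2.51 ± 0.56 (edgeR adjusted p from 0.00059 to 0.002). At 16 °C Rps13 had as few as 3 counts in a library. The calls on both genes were kept in all 12 fits that left out 1 library.

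The ribosomal protein entry with the most counts, Rps7, had 112, 59.2 and 68.7 CPM at 24 °C in light 100 and 57.3, 44.8 and 43.8 CPM at 24 °C in light 10. At 16 °C its libraries had 65.2, 28.6 and 45.0 CPM in light 100 and 42.1, 53.1 and 40.2 CPM in light 10. The temperatures overlapped in both lights. Rps7 was called at light 100 (0.78 ± 0.27, edgeR adjusted p = 0.0195), a call lost without replicate 1 at 24 °C (0.46) or without replicate 2 or 3 at 16 °C (0.53 and 0.76), and not at light 10 (0.11 ± 0.27). Rps3 was also called at light 100 (0.77 ± 0.32), in 3 of the 12 fits that left out 1 library, and Rps12 was not called in either light. The entry called lower at light 10 was Rpl16, with a log2 change of -1.30 ± 0.49 (edgeR adjusted p = 0.0322); the call was kept in 7 of the 12 fits that left out 1 library and was lost without any replicate at 16 °C in light 10 or without replicate 1 or 2 at 24 °C in light 10.

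Ymf16 was called higher with warmth in both lights, by 1.14 ± 0.42 at light 10 and by 1.03 ± 0.36 at light 100 (log2). These calls were kept in 8 and 9 of the 12 fits that left out 1 library, and both were lost with total counts in place of scaled library sizes (0.95 and 0.76). Among the open reading frames, ORF153 was called higher in both lights (1.75 ± 0.52 and 1.53 ± 0.53), in 11 and 10 of those 12 fits and with 5 to 36 counts per library, while the 2 entries of ORF129 did not pass in either.

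With warmth, 4 of the 6 rRNA entries were called lower at light 100 (66.7%, against 36.1% of all entries). They were both rrl entries and the rrs pair OstapMr02 and OstapMr05. All 6 entries stand in pairs of like counts, so the 66.7% does not count independent measurements. At light 10, 0 were called (also 0 at an unadjusted p under 0.05 and 0 by DESeq2), against 32.9% of all entries higher and 33.4% lower. The large-subunit entry rrl (OstapMr03) had 10.0, 10.8 and 12.05 CPM at 24 °C in light 100 and 12.5, 9.47 and 9.25 CPM at 24 °C in light 10. The libraries at 16 °C had 27.1, 14.6 and 16.7 CPM in light 100 and 10.8, 9.56 and 15.3 CPM in light 10. At light 100 the temperatures did not overlap, and rrl fell by 0.82 ± 0.23 in OstapMr03 and by 0.80 ± 0.23 in OstapMr04 (log2, edgeR adjusted p = 0.00576 and 0.00678). Both calls were kept whichever library was left out.

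The 2 pairs of small-subunit entries differed from each other across libraries. The pair with more counts, OstapMr01 and OstapMr06, had in its first entry 156, 36.4 and 27.2 CPM at 24 °C in light 100 and 31.2, 23.0 and 47.0 CPM at 24 °C in light 10. At 16 °C it had 111, 42.5 and 67.1 CPM in light 100 and 67.3, 94.2 and 65.4 CPM in light 10. Like nad1, it was high in replicate 1 at 24 °C in light 100, and lower in every library at 24 °C than at 16 °C in light 10. Its log2 changes with warmth were -1.17 ± 0.61 at light 10 and -0.02 ± 0.60 at light 100, neither called; without replicate 1 at 24 °C in light 100 they were -1.16 and -1.21, both called.

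The other pair, OstapMr02 and OstapMr05, had in its first entry 9.86, 8.93 and 14.3 CPM at 24 °C in light 100 and 9.63, 10.4 and 11.5 CPM at 24 °C in light 10. In the cold it had 27.2, 14.2 and 11.2 CPM in light 100 and 13.2, 13.3 and 14.5 CPM in light 10. At light 100 the temperatures overlapped, and the log2 change of -0.66 ± 0.27 (edgeR adjusted p = 0.0395) was no longer called with replicate numbers as a block (-0.64), in the fit of the compared groups alone (-0.69), without replicate 1 (-0.60) or 2 (-0.53) at 24 °C or replicate 1 at 16 °C (-0.20) in light 100, or without replicate 1 at 16 °C in light 10 (-0.66). Among the 12 tRNA entries tested, 0 were called in any comparison by edgeR with TMM scaling, the filter, all 12 libraries in 4 groups and no block; at an unadjusted p under 0.05 there were 3 for light at 24 °C and 2 for the interaction, all higher. With replicate numbers as a block, trnY (OstapMt24) was called higher for light at 24 °C (0.95), as it was with RLE scaling (0.98). Fits of the compared groups alone called trnI (-1.03), trnN (-1.35) and both trnY entries (-0.65 and -0.63) lower with warmth at light 10, and trnQ higher with more light at 24 °C (1.14). With no filter on low counts, 3 of the 28 tRNA entries were called higher and 1 lower with warmth at light 10. Entries of trnI, trnN, trnQ and trnY were also called in some of the fits that left out 1 library. DESeq2, which also tested entries below the filter, called 2, 1, 0, 4 and 0 tRNA entries in the 5 comparisons, all higher. Among those tested by edgeR, trnY had the most counts, with log2 changes with warmth of -0.63 ± 0.42 at light 10 and 0.65 ± 0.41 at light 100, and trnN had the lowest value at light 10 (-1.32 ± 0.76). RnpB had 2 to 22 counts per library and was not called, with log2 changes with warmth of 0.15 ± 0.76 at light 10 and 0.04 ± 0.72 at light 100.

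Along the identifier numbers, entries with opposite changes stood near each other at light 10, though not all of them were called. Within the paired block, Atp8 (-1.06), Ymf39 (-0.07), Cox1 (2.996) and CytB (-1.07) lie within OstapMp22 to OstapMp26. ORF129, between Cox1 and CytB, was not called. Outside the block, Cox2 (-0.15), Cox3 (2.67), nad4 (1.46) and nad5 (1.05) follow nad1 (-1.61), Atp6 (-1.21) and nad6 (-1.91) in OstapMp29 to OstapMp36. Ymf39, nad1, nad6 and Cox2 were not called either. At light 100 all the protein entries other than CytB had positive values with all 12 libraries. Without replicate 1 at 24 °C in light 100, values turned negative for nad1 (-0.90), nad6 (-1.35), Atp6 (-0.86), Atp8_1 (-0.58) and Cox2 (-0.37), among others. Cox1_1 (1.70), nad7 (1.10) and nad4 (1.32) were among those that stayed positive. The table gives no coordinates, so the order of the numbers is not shown to be the order on the genome.

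More light at 16 °C changed few members. The calls were 6 higher and 0 lower (9 and 0 at an unadjusted p under 0.05, and 6 and 0 by DESeq2), against 36.3% of all entries called, 18.9% higher and 17.4% lower. They were both Cox1 entries, Cox3, nad3 and both rrl entries. Cox1_1 rose by 1.27 ± 0.28 (log2, edgeR adjusted p = 0.00264), Cox3 by 1.41 ± 0.36 (0.00706) and nad3 by 2.15 ± 0.56 (0.00805), and these calls were kept in all 12 fits that left out 1 library. All 3 genes were higher in every library in light 100 than in every library in light 10, from the values given above. rrl rose by 0.71 ± 0.23 in each entry, with overlap, and its calls were lost without replicate 1 at 16 °C in light 100 (0.40 and 0.39) and without the first or second replicate in light 10. The mean mitochondrial share of counts was 0.0884% in light 100 and 0.0881% in light 10, a ratio of 1.00.

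More light at 24 °C gave 12 calls higher and 1 lower, against 58.5% of all entries called, 29.7% higher and 28.8% lower. Those called higher were nad1, both Atp8 entries, both CytB entries, Rps2, Rps3, Rps4, Rps7, Rps14, Rpl16 and Ymf16. Without replicate 1 at 24 °C in light 100, edgeR called 0 members, with 2 higher and 1 lower at an unadjusted p under 0.05. nad1 had a log2 change of 1.90 ± 0.71 with this library (edgeR adjusted p = 0.0396) and 0.68 without it. With replicate numbers as a block, its change was 1.67 and was not called. For CytB (OstapMp26) the changes were 0.84 with the library and 0.41 without it, and for Atp8_1 1.11 and 0.42.

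Other entries moved less. Rps4 had 3.25, 2.27 and 1.88 CPM in light 100 and 1.22, 1.13 and 0.467 CPM in light 10 at 24 °C, without overlap, with a log2 change of 1.31 with that library and 1.08 without it. The entry called lower was Atp9, which fell by 1.33 ± 0.46 on the log2 scale (-1.25 without the library, where it was not called). Atp9 had 0.580, 0.552 and 0.974 CPM in light 100 and 2.70, 1.56 and 1.02 CPM in light 10 at 24 °C, so its libraries did not overlap. Cox1_1 was not called, with a log2 change of -0.08 ± 0.25, and Cox3 had -0.56 ± 0.32. The count of calls was also under 10 when any library at 24 °C in light 10 or at 16 °C in light 10, or replicate 3 at 16 °C in light 100, was left out, at 3 to 9, and it was 24 without replicate 3 at 24 °C in light 100. With total counts in place of scaled library sizes the calls were 5 higher and 1 lower.

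**Figure D4:**
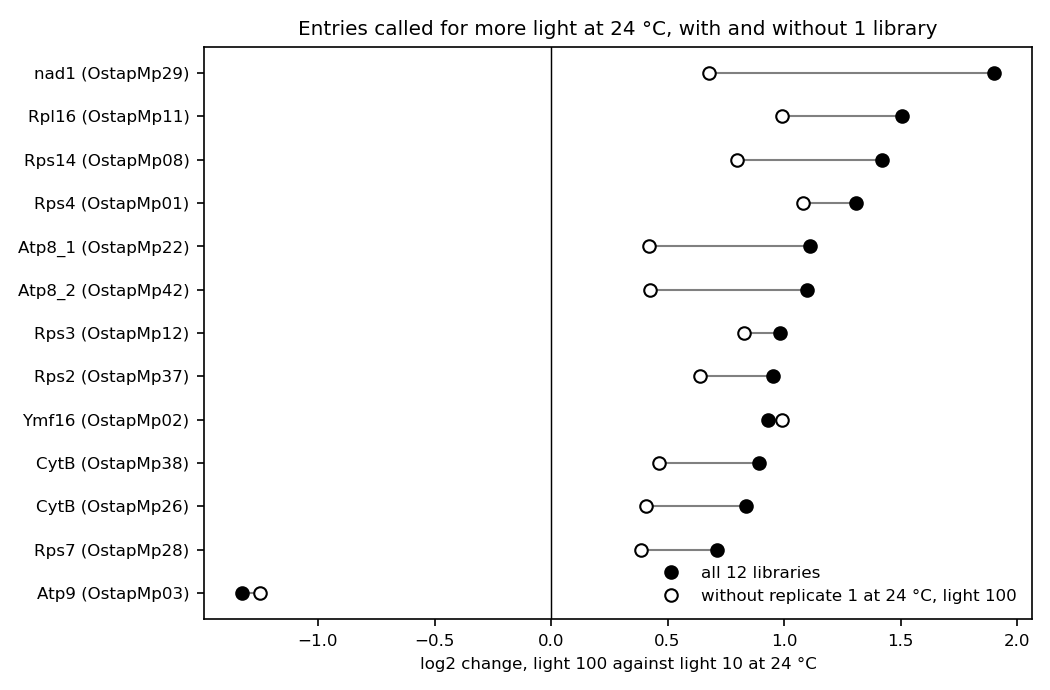
Log2 change with more light at 24 °C (x axis) of the 13 mitochondrial entries called in that comparison; filled points use all 12 libraries and open points leave out replicate 1 at 24 °C in light 100. nad1 goes to 0.68 without the library, with 1.90 for all 12, while Atp9 and Ymf16 move by less than 0.1.

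The effect of warmth differed between the lights for 4 entries, or 3 genes. These were Cox1, Cox3 and nad3, in which the rise with warmth was smaller at light 100 than at light 10. Of all entries tested, 30.5% were called for this interaction, 16.9% higher and 13.6% lower, against 0 higher and 4 lower among the 61 members by edgeR (5 and 5 at an unadjusted p under 0.05, and 1 and 5 by DESeq2). The warmth effects, given above for each light, differed (light 100 minus light 10, log2) by -1.36 ± 0.37 for Cox1_1, -1.34 ± 0.37 for Cox1_2, -1.97 ± 0.48 for Cox3 and -2.47 ± 0.74 for nad3 (edgeR adjusted p from 0.00818 to 0.023). The calls on Cox1 and Cox3 were kept in all 12 fits that left out 1 library. That on nad3 was lost without replicate 1 at 16 °C in light 100 (-2.02), without replicate 3 at 16 °C in light 10 (-2.26) or without replicate 1 at 24 °C in light 10 (-2.12). Without replicate 1 at 16 °C in light 100, 9 entries were called higher and 3 lower. Entries such as nad1 had positive differences with wide errors (1.93 ± 0.97) and were not called.

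On the scale of the mitochondrial counts without rRNA and tRNA, a change is relative to a sum in which nad1 weighed most. By library, nad1 took 10.5% to 34.6% of all mitochondrial counts. Warmth at light 10 gave 20 calls higher and 0 lower on this scale. On that scale Cox1_1 changed by 3.77, Cox3 by 3.47, nad7 by 2.70 and Atp9 by 2.66, and nad1 (-0.89) and CytB (-0.30 in OstapMp26) were not called. The median of all entries moved to 0.79 on that scale, and 1703 entries of the whole table were called, against 5084 with TMM scaling. At light 100 the mitochondrial scale gave 4 calls, all higher, and for the interaction 0, with 6 lower at an unadjusted p under 0.05. In the whole table, where TMM scaling gave 5455 and 2337 calls, the mitochondrial scale gave 941 and 16. The calls on CytB, Atp6 and Atp8 at light 10 were lost on this scale, whereas those on Cox1 and Cox3 were kept. With TMM scaling, plastid entries, the other organelle genes of the table, gave other counts. Of the 28 tested, 1 was called higher and 4 lower with warmth at each light (3.57% and 14.3%). With more light 5 were higher and 0 lower at 16 °C (17.9% and 0%), and 11 higher and 2 lower at 24 °C (39.3% and 7.14%). The shares of all entries are those given above for each comparison. The difference between mitochondrial and plastid entries was not tested.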

How the data were processed

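Wild type Ostreococcus tauri was sequenced as 12 libraries in 4 groups of temperature and light. BGI prepared the libraries and read them in pairs on its DNBseq platform, per the labels' protocols. The submitters' processing notes name the read check FastQC 0.11.5 and the aligner HISAT2 2.1.0. How reads were counted, on which build and annotation, and whether strand was used is not given in the sources used here. Whole-number counts per entry were deposited by the authors, and no normalization was found in the values. Reads shared by repeated genes, and by overlapping or antisense genes, could be assigned by that counting in ways that are not known here.

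The whole table was fitted with edgeR 4.0.16 (limma 3.58.1, R 4.3.3): TMM scaling, filterByExpr with its default minimum count of 10, robust quasi-likelihood fits with 1 mean per group over 12 libraries, 8 residual degrees of freedom and a common biological coefficient of variation of 0.122. P-values were adjusted by Benjamini-Hochberg over 7667 entries and called under 0.05. Standard errors come from the F statistic. The steps were tested on simulated counts. Alternatives were DESeq2 1.42.0, other scalings, no filter, fits of the compared groups alone, a replicate block and each library left out. Repeat pairs were entries of one name whose counts differ by at most 25%; counting them once was added after seeing the data. The members and lists were chosen with earlier results of these data known. The rule for names covered all respiratory, rRNA and translocase entries and, of ribosomal proteins and tRNAs, the 3 with the highest mean CPM and the 2 highest and 2 lowest changes in each comparison; other names in the text, among them Rps2, Rps4, ORF153 and ORF129, were chosen after their values were seen. Of the 78 entries, 1 is not reported here; it stays in the fits and totals and out of every count of mitochondrial entries.

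Over all genes, libraries with the same replicate number deviated together in every pair for light at 24 °C only. The correlations there were 0.17, 0.13 and 0.38 for replicates 1, 2 and 3. Elsewhere at least 1 pair was under 0.1. For warmth at light 10 they were -0.05, 0.18 and 0.19, so the blocked values bear on both comparisons. With the block, warmth at light 10 gave 15 calls higher and 10 lower among the members, and 5161 calls in the whole table. No 2 libraries of a group agreed within sampling noise (chi-square per degree of freedom of 16.8 or more).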

Additional observations from a re-analysis of the deposited data

Results flagged for a closer look

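The effect of warmth on 4 mitochondrial entries differed between the light levels by the interaction term of the edgeR fit. The warmth effect at light 100 minus that at light 10 was -1.36 for Cox1_1, -1.34 for Cox1_2, -1.97 for Cox3 and -2.47 for nad3 on the log2 scale. In the same order, the changes with warmth were 1.64, 1.68, 0.70 and 0.05 at light 100, against 2.996, 3.02, 2.67 and 2.52 at light 10. The Cox1 entries, of one name and with like counts, are not independent measurements here. On the scale of mitochondrial counts without rRNA and tRNA the differences were -2.17, -2.15, -2.82 and -3.29, and 0 of them were called. That scale gave 16 interaction calls in the whole table, against 2337 with TMM scaling.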

How the results depend on the processing

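Of 68 calls over the 5 comparisons, 62 were kept with DESeq2, 67 with RLE scaling, 67 with scaling on nuclear entries, 68 with no filter on low counts, 63 with a replicate block, 48 with total counts and no scaling factor, and 22 with scaling on mitochondrial counts without rRNA and tRNA. That last scaling gave 0 calls for the interaction, 0 for light at 16 °C, 1 for light at 24 °C and 4 for warmth at light 100. In the whole table it gave 16, 173, 634 and 941 calls in that order, against 2337, 2786, 4482 and 5455 with TMM scaling. The mitochondrial scaling reversed 3 values for light at 24 °C, to -0.14 and -0.078 for CytB (OstapMp26 and OstapMp38) and to -0.23 for Rps7. It moved the median of all entries by 0.80 for warmth at light 10, -0.23 for warmth at light 100, 0.25 for light at 16 °C, -0.78 for light at 24 °C and -1.03 for the interaction. Total counts gave 6 calls (5 higher, 1 lower) for light at 24 °C, 12 (8 higher, 4 lower) for warmth at light 100 and 26 (14 higher, 12 lower) for warmth at light 10, and moved the median of all entries by -0.21 and -0.26 for warmth at light 10 and 100. Fits of the compared groups alone gave 36 calls for warmth at light 10. With the replicate block the counts of calls were 25 and 24 for warmth at light 10 and 100, 7 and 15 for light at 16 and 24 °C and 6 for the interaction; it lost 5 calls, those on nad1 for light at 24 °C, on Rpl14 (1.00) and Rps10 (0.85) for warmth at light 10 and on both entries of rrs at light 100 named above, and added 14.

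With 1 library left out, the calls ranged from 14 to 27 for warmth at light 10, 13 to 27 for warmth at light 100, 4 to 8 for light at 16 °C, 0 to 24 for light at 24 °C and 3 to 12 for the interaction. Ratios of mitochondrial shares ranged from 0.467 to 0.550, 0.573 to 1.35, 0.738 to 1.21 and 1.15 to 2.46 in the same order of the first 4 comparisons. Counting repeat pairs once gave 19, 19, 4, 11 and 3 calls. The causes were not tested. Low counts limit nad3, nad9, ndhK, Rps13, Rpl6, ORF153 and the tRNA entries most.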

Other observations

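Ribosomal RNA entries took 18.8% to 20.1% of mitochondrial counts at 24 °C in light 100 and 21.7% to 24.8% in light 10; the cold libraries had 25.7% to 29.7% in light 100 and 24.2% to 25.7% in light 10. nad6 took 13.1% of the mitochondrial counts in replicate 1 at 24 °C in light 100, against 5.98% and 4.23% in the other libraries of that group. At 24 °C in light 10 it was replicate 3 that had the higher share of nad6, 8.08%, against 3.32% and 2.01%, and the lowest Cox1 count per 100 nad1 counts of its group, 9.57. That library had the lowest total count of its group.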
